A study of Mus musculus with 12 samples.

Results

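The 10 genes described here encode enzymes and receptors of the prostaglandin and leukotriene pathway. They were taken from a fixed list of mouse symbols, which was chosen with earlier results of these data known. All 10 were found among the 54232 genes of the count table, and all 10 passed the filter on low counts that left 12771 genes for testing. RNA was sequenced from RAW264.7 cells, a mouse macrophage line grown in culture. Cells labelled Ing4-/- (Ing4 KO), Socs1-/- (Socs1 KO) or Wild type (WT) were given lipopolysaccharide (LPS), an outer-membrane component of Gram-negative bacteria, at 100 ng/ml for 3 h, or were left untreated. The 6 groups were LPS-treated Ing4 KO, untreated Ing4 KO, LPS-treated Socs1 KO, untreated Socs1 KO, LPS-treated WT and untreated WT cells, with 2 libraries each, and the cell line is common to all of them. The labels do not say how either gene was disrupted, how many clones stand behind a knockout, or whether replicate libraries were grown separately. The effect of a lost gene therefore cannot be told apart from other differences between these cell populations, and every p-value reflects no more than the scatter of these libraries.

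Prostaglandins and leukotrienes are lipid mediators made from arachidonic acid, which cytosolic phospholipase A2 (Pla2g4a) cuts out of membrane phospholipids. Cyclooxygenases (Ptgs1 and the inducible Ptgs2) turn it into prostaglandin H2, which prostaglandin E synthases (Ptges, Ptges2) convert to prostaglandin E2, a mediator of fever, pain and macrophage regulation. Prostaglandin E2 acts on receptors that include EP2 (Ptger2) and EP4 (Ptger4), and prostacyclin acts on IP (Ptgir). On the other branch, 5-lipoxygenase (Alox5) makes leukotrienes with the help of its membrane partner, the 5-lipoxygenase-activating protein (Alox5ap). Macrophages are known to make both classes of mediator.

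LPS raised the RNA of a pair of coupled enzymes of prostaglandin E2 synthesis, Ptgs2 and Ptges, in each of the 3 genotypes. Averaged over genotypes, the rise was 8.24 on the log2 scale for Ptgs2 (SE 0.8) and 2.51 for Ptges (SE 0.185), over 6 LPS-treated and 6 untreated libraries. Ptger2 rose in this average as well, although it passed the filter on low counts only through LPS-treated libraries. None of the 10 genes was called lower in this edgeR fit, beside 15.2% of all genes. With DESeq2 3 were called lower (17.7% of all genes), and 5 when same-numbered libraries of a genotype were blocked (25.1%). The genes with the highest untreated levels per length, Alox5ap, Pla2g4a and Alox5, had fitted mean changes between -0.65 and -0.41 with LPS. None of these passed in the edgeR fit without a block. Ptgs1 was lower in both Ing4 KO libraries than in both WT libraries with and without LPS, but the edgeR test did not call that difference.

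The promoters of the 3 genes around which the results turn are shown. Ptgs2 and Ptges are the members called higher in every genotype by the edgeR fit to all 12 libraries without a block. Ptgs1 is the one with the largest fitted difference between a knockout and WT among genes with counts in every group. Each window is from RefSeq (GRCm38.p6), 250 bases before to 50 bases after an annotated start, read 5′ to 3′ on the gene's strand. Ptgs2 is on the plus strand (chr1:150099781-150100080), Ptges on the minus strand (chr2:30903248-30903547) and Ptgs1 on the plus strand (chr2:36230176-36230475). Capitals mark, in Ptgs2, a C/EBP match and a joined CRE core and E-box, and, in Ptges, GC boxes. The Ptgs1 window held none of the 6 motifs searched and has no capitals.
Ptgs2: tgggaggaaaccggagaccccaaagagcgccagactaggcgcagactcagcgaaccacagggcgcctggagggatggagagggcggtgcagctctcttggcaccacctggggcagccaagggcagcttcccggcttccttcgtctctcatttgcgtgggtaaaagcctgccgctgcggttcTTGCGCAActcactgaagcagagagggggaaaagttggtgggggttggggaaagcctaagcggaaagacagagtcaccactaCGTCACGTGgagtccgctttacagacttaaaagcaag
Ptges: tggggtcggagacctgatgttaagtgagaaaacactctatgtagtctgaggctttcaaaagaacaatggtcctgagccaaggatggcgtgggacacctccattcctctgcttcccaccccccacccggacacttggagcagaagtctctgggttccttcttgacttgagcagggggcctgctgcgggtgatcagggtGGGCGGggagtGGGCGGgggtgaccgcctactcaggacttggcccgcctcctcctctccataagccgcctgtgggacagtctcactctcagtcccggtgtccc
Ptgs1: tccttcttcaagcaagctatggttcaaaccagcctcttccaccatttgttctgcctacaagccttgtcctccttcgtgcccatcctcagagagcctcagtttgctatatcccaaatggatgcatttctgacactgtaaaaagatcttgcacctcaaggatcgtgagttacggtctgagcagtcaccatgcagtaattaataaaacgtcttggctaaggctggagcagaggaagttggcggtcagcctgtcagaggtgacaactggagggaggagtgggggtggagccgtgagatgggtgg

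The motifs were searched on both strands as the CRE core TGACG, the E-box CACGTG, the C/EBP motif TTGCNNAA, the GC box GGGCGG, the TATA box TATAAA and the NF-kB consensus. In the Ptgs2 window, with 0 as the annotated start, the C/EBP match lay at -69 to -62, the CRE core (reverse strand) at 13 to 17 and the E-box at 16 to 21, so that the last pair overlap. A GC box lay at -170 to -165 in the same window, in lower case above. Ptges had GC boxes at -53 to -48 and -42 to -37. Of all 32851 RefSeq windows of this length, 20.8% held the CRE core, 7.15% the E-box, 10.8% the C/EBP motif, 35.7% the GC box, 13.6% the TATA box and 4.51% the NF-kB consensus. Windows were available for 9 of the 10 genes. Among these 9 genes the CRE core was found in 1, the E-box in 2, the C/EBP motif in 2, the GC box in 5, the TATA box in 1 and the NF-kB consensus in 0. These matches describe letters in a window, and no binding was measured.

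Libraries held 17250815 to 24377950 counts. Before TMM scaling, 0.123 to 0.174 counts per 1000000 of a library's total stand for 3 counts. Levels are given as CPM (counts per 1000000, scaled by library size and TMM factor). All 8 macrophage markers checked had at least 1 CPM in every library. Their sum was 11767 to 22135 CPM, while the sums for mast cell, T, B and NK cell, platelet, and epithelial and fibroblast markers stayed at or below 0.693 CPM and that for neutrophil markers was 0.698 to 3.23 CPM. LPS-treated Socs1 KO library 1 stood apart. On the first principal component (54.4% of variance) it lay at -16.2, against 62.4 to 74.4 for the other LPS libraries and -66.1 to -41.7 for the untreated ones. Results of the 10 genes whose call changed without LPS-treated Socs1 KO library 1 are given both ways. Ing4 had 2 to 29 counts per library, with 6, 29, 6 and 10 counts in the libraries labelled Ing4 KO and 10, 5, 6 and 2 in WT. Socs1 had 67 and 127 counts in LPS-treated libraries labelled Socs1 KO, against 169 and 179 in LPS-treated WT, and 4 to 12 in untreated libraries. Neither gene's count therefore checks the genotype labels, which are used as given.

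Levels of different genes were compared per length, as CPM per kilobase of exon. In untreated cells of every genotype the order began with Alox5ap, Pla2g4a, Alox5 and Ptges2, with no overlap between neighbours. In untreated Ing4 KO cells these averaged 109, 55.6, 24 and 5.31 CPM per kilobase. In untreated WT cells they averaged 94.3, 55, 23 and 5.98 CPM per kilobase. The means of the remaining 6 genes lay at or below 3.71 CPM per kilobase in untreated cells of all genotypes. After LPS, Ptgs2 led the order with a mean of 180 CPM per kilobase in Ing4 KO, 178 in Socs1 KO and 220 in WT cells. Its libraries overlapped those of the next gene, Alox5ap, in Socs1 KO cells but not in the other genotypes.

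**Figure D1:**
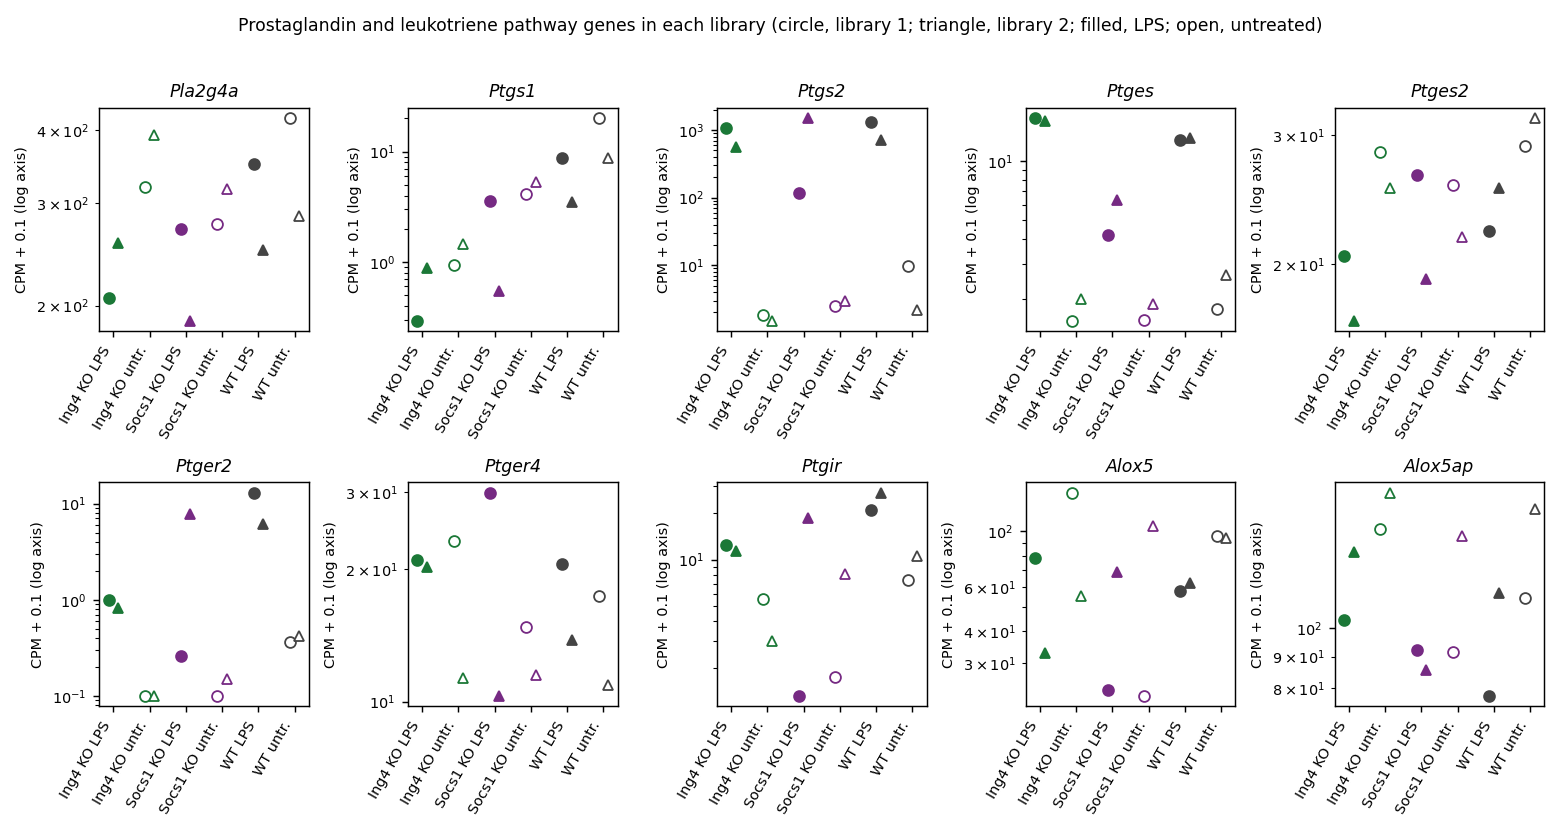
Level of each of the 10 genes in each library, as CPM plus 0.1 on a log axis with a separate range per panel. Circles are library 1 and triangles library 2, filled symbols are LPS-treated and open symbols untreated libraries; Ptgs2 lay between 118 and 1509 CPM in every LPS library and at or below 9.66 CPM in every untreated one.

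Pla2g4a (chr1, 149829618 to 149961290, minus strand, GRCm38) provides the arachidonic acid for both branches. It had 206 and 256 CPM in LPS-treated and 319 and 392 CPM in untreated Ing4 KO cells. It had 270 and 188 CPM in LPS-treated and 276 and 317 CPM in untreated Socs1 KO cells. It had 349 and 249 CPM in LPS-treated and 419 and 285 CPM in untreated WT cells. Every LPS library was below the untreated library of the same number and genotype, although the groups overlapped in WT. The mean change over the genotypes was -0.41 on the log2 scale (SE 0.156) with an edgeR adjusted p of 0.072, so Pla2g4a did not pass. It passed without LPS-treated Socs1 KO library 1 (-0.50, edgeR adjusted p = 0.029), without untreated WT library 2, and with same-numbered libraries of a genotype blocked (edgeR adjusted p = 0.014). In bulk RNA of this kind, fewer cells expressing a gene and less RNA per cell cannot be told apart.

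Ptgs2 (ENSMUSG00000032487, chr1, 150100031 to 150108227, plus strand), the inducible cyclooxygenase, had the largest fitted mean rise among the 10 genes. It had 1085 and 562 CPM in LPS-treated Ing4 KO cells and 1.74 and 1.38 CPM in untreated Ing4 KO cells. It had 118 and 1509 CPM in LPS-treated Socs1 KO cells and 2.43 and 2.89 CPM in untreated Socs1 KO cells. It had 1308 and 709 CPM in LPS-treated WT cells and 9.66 and 2.08 CPM in untreated WT cells. The LPS and untreated libraries did not overlap in any genotype, and the low LPS value was that of Socs1 KO library 1, the library that stood apart.

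The fitted rise of Ptgs2 was 9.03 on the log2 scale in Ing4 KO (SE 1.44, edgeR adjusted p = 0.013). In Socs1 KO it was 8.26 (SE 1.39, edgeR adjusted p = 0.024), and 9.15 without LPS-treated library 1 (edgeR adjusted p = 0.00073). In WT it was 7.42 (SE 1.33, edgeR adjusted p = 0.031), and the mean over the genotypes was 8.24 (SE 0.8, edgeR adjusted p = 0.00034). The mean rise passed in all 12 fits that left out 1 library, with edgeR adjusted p from 1.1e-05 to 0.0045. Single genotypes were less stable. The WT call remained in 2 of these 12 fits, those without either LPS-treated Socs1 KO library, and otherwise was lost with edgeR adjusted p up to 0.21. The Ing4 KO call was lost without either untreated Ing4 KO library (edgeR adjusted p up to 0.12). The Socs1 KO call was lost when a single LPS-treated WT, untreated Ing4 KO or untreated Socs1 KO library was left out, whichever of the 6 it was (edgeR adjusted p up to 0.23). The log2 rise stayed between 5.47 and 9.43 in all of these fits. In the authors' deposited table Ptgs2 has a log2 change of 3.01 with an adjusted p of 1.3e-05 for LPS-treated over untreated WT cells, and how that value was fitted is not stated.

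Ptgs1 (chr2, 36230426 to 36252272, plus strand), the constitutive cyclooxygenase, had 0.19 and 0.775 CPM in LPS-treated and 0.829 and 1.34 CPM in untreated Ing4 KO cells. It had 3.46 and 0.45 CPM in LPS-treated and 3.99 and 5.23 CPM in untreated Socs1 KO cells. It had 8.65 and 3.4 CPM in LPS-treated and 20.1 and 8.69 CPM in untreated WT cells. Each LPS library was below its untreated counterpart, and the LPS and untreated groups did not overlap, although the gap in WT was small. The mean LPS change was -1.22 on the log2 scale (SE 0.53, edgeR adjusted p = 0.11), which did not pass. It passed without LPS-treated Socs1 KO library 1 (-1.93, edgeR adjusted p = 0.0096) and with same-numbered libraries blocked (-1.33, edgeR adjusted p = 0.0494). Its exons overlap the predicted gene Gm43621 on the opposite strand, and the use of strand in counting is not stated.

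Ptges (ENSMUSG00000050737, chr2, 30889471 to 30929863, minus strand), the inducible microsomal prostaglandin E synthase that is functionally coupled to Ptgs2, rose in each genotype. It had 16.4 and 15.9 CPM in LPS-treated Ing4 KO cells and 1.44 and 1.89 CPM in untreated Ing4 KO cells. It had 4.12 and 6.24 CPM in LPS-treated Socs1 KO cells and 1.47 and 1.79 CPM in untreated Socs1 KO cells. It had 12.7 and 12.9 CPM in LPS-treated WT cells and 1.67 and 2.54 CPM in untreated WT cells. The groups did not overlap, both LPS-treated Socs1 KO libraries were below all other LPS libraries, and the LPS-treated replicates of Ing4 KO and WT were close to each other. The replicate difference in LPS-treated WT was smaller than that of all but 5.15% of the genes tested.

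The rise of Ptges was 3.27 on the log2 scale in Ing4 KO (SE 0.328, edgeR adjusted p = 0.0014) and passed in all 12 fits that left out 1 library. In WT it was 2.60 (SE 0.319, edgeR adjusted p = 0.0049) and was lost without untreated WT library 1 (edgeR adjusted p = 0.085). In Socs1 KO it was 1.66 (SE 0.316, edgeR adjusted p = 0.035) and 1.94 without LPS-treated library 1 (edgeR adjusted p = 0.0046). That call remained in only 2 of the 12 fits, the other being that without untreated WT library 1, and the edgeR adjusted p otherwise reached up to 0.22. The mean rise of 2.51 (SE 0.185, edgeR adjusted p = 5.9e-05) passed in all 12. The authors' deposited table lists Ptges with a log2 change of 2.39 and an adjusted p of 2.4e-11 for WT.

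Ptges2 (chr2, 32395896 to 32405772, plus strand), another membrane-associated prostaglandin E synthase, ranged from 16.6 to 26.4 CPM over the 6 LPS libraries and from 21.7 to 31.6 CPM over the 6 untreated libraries. LPS was lower than untreated in 5 of 6 same-numbered pairs, and the exception was Socs1 KO library 1. The mean change was -0.32 on the log2 scale (SE 0.121, edgeR adjusted p = 0.071), which did not pass. It passed without LPS-treated Socs1 KO library 1 (-0.40, edgeR adjusted p = 0.018) and with same-numbered libraries blocked (edgeR adjusted p = 0.014). The fitted mean LPS changes of these synthases thus lay on opposite sides of 0.

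Ptger2 (chr14, 44988195 to 45003820, plus strand), the EP2 receptor for prostaglandin E2, was near or below detection in untreated cells. It had 0.903 and 0.72 CPM (19 and 13 counts) in LPS-treated Ing4 KO cells and 0 counts in both untreated Ing4 KO libraries. It had 0.163 and 7.65 CPM (4 and 136 counts) in LPS-treated Socs1 KO cells and 0 and 1 count in untreated Socs1 KO cells. It had 12.9 and 5.98 CPM in LPS-treated WT cells and 0.263 and 0.317 CPM (6 and 7 counts) in untreated WT cells. Every LPS library was above both untreated libraries of its genotype, and LPS-treated Socs1 KO library 1 was the lowest of the LPS libraries.

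Against a floor of 3 counts over the untreated group, Ptger2 was at least 12.2-fold higher in LPS-treated than in untreated Ing4 KO cells. In Socs1 KO the ratio of summed counts over summed TMM-scaled library sizes was 143 (exact 95% interval 25.2 to 5677, counting error only). The ratio was 330 (58.2 to 13127) without LPS-treated library 1. In WT it was 32.3 (18.7 to 61.3). Ptger2 passed the filter on low counts only through LPS-treated libraries, so the tests below are of a gene kept because of those libraries. The mean LPS change passed with an edgeR adjusted p of 0.0061, and in all 12 fits that left out 1 library (edgeR adjusted p from 2.3e-05 to 0.026). In single genotypes it did not pass, with edgeR adjusted p of 0.13 in Ing4 KO, 0.14 in Socs1 KO and 0.11 in WT. Without LPS-treated Socs1 KO library 1 it passed in each, with edgeR adjusted p of 0.0041 in Ing4 KO, 0.00086 in Socs1 KO and 0.0014 in WT. It also passed in each with same-numbered libraries blocked, with edgeR adjusted p of 0.015 in Ing4 KO, 0.011 in Socs1 KO and 0.0057 in WT. DESeq2 with all 12 libraries called it in each, with DESeq2 adjusted p of 0.0059 in Ing4 KO, 0.0026 in Socs1 KO and 0.0021 in WT. The authors' deposited table gives Ptger2 a log2 change of 2.59 with an adjusted p of 0.00027 in WT. The predicted genes Gm17173 and Gm49364 overlap Ptger2 exons on the opposite strand.

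Ptger4 (chr15, 5206661 to 5244187, minus strand), the EP4 receptor, ranged from 10.2 to 29.8 CPM over the LPS libraries and from 10.8 to 23.1 CPM over the untreated ones. These ranges overlapped, both ends of the LPS range came from Socs1 KO, and the mean change of 0.39 on the log2 scale (SE 0.295) had an edgeR adjusted p of 0.34. Without LPS-treated Socs1 KO library 1 the mean change of Ptger4 was 0.06. Some exonic sequence of Ptger4 is shared with Ttc33 and a pseudogene on the opposite strand.

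Ptgir (chr7, 16906490 to 16910905, plus strand), the prostacyclin receptor, had 12.3 and 11.2 CPM in LPS-treated and 5.45 and 2.9 CPM in untreated Ing4 KO cells. It had 1.22 and 18.5 CPM in LPS-treated and 1.65 and 8.01 CPM in untreated Socs1 KO cells. It had 20.8 and 27 CPM in LPS-treated and 7.33 and 10.5 CPM in untreated WT cells. LPS libraries were above untreated ones without overlap in Ing4 KO and WT, whereas in Socs1 KO library 1 was low and library 2 high under both treatments. The mean LPS change of 1.31 on the log2 scale (SE 0.602, edgeR adjusted p = 0.13) did not pass. It passed without LPS-treated Socs1 KO library 1 (1.62, edgeR adjusted p = 0.0093) and with same-numbered libraries blocked (1.19, edgeR adjusted p = 0.0068). With the block it also passed in Ing4 KO (1.54, edgeR adjusted p = 0.033) and in WT (1.43, edgeR adjusted p = 0.048).

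Alox5 (chr6, 116410077 to 116461178, minus strand), 5-lipoxygenase, differed more between libraries of a knockout than between treatments. It had 77.8 and 32.7 CPM in LPS-treated and 142 and 55.2 CPM in untreated Ing4 KO cells. It had 23.4 and 68.9 CPM in LPS-treated and 22.1 and 105 CPM in untreated Socs1 KO cells. It had 57.7 and 62.1 CPM in LPS-treated and 95.3 and 93.8 CPM in untreated WT cells. In Ing4 KO library 1 was the higher one under both treatments, in Socs1 KO library 2 was, and in WT the libraries were alike within a treatment. The ratio of library 1 to library 2 was 2.38 after LPS and 2.57 untreated in Ing4 KO. The same ratio was 0.34 after LPS and 0.21 untreated in Socs1 KO, and 0.93 after LPS and 1.02 untreated in WT. Ptgir shared this behaviour in Socs1 KO, with ratios of 0.0661 after LPS and 0.206 untreated. The untreated Ptgir difference exceeded that of 97.9% of genes tested, and the LPS one that of 98.1%.

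The mean LPS change of Alox5 was -0.65 on the log2 scale (SE 0.454, edgeR adjusted p = 0.3), and -0.46 without LPS-treated Socs1 KO library 1 (edgeR adjusted p = 0.47). With same-numbered libraries of a genotype blocked it was -0.58 with an SE of 0.0982 and passed (edgeR adjusted p = 0.005). LPS was lower than untreated in 5 of 6 pairs for Alox5, the exception being Socs1 KO library 1. Alox5ap (chr5, 149264767 to 149288153, plus strand), which presents arachidonic acid to 5-lipoxygenase, ranged from 77.6 to 133 CPM over the LPS libraries and from 91.5 to 166 CPM over the untreated ones. It too was lower with LPS in 5 of 6 pairs, with a difference of 0.01 on the log2 scale in Socs1 KO library 1. Its mean change was -0.42 on the log2 scale (SE 0.157, edgeR adjusted p = 0.066), and it passed with the block (edgeR adjusted p = 0.015) or without either LPS-treated WT library 2 or untreated Socs1 KO library 1 (edgeR adjusted p down to 0.04). An antisense gene, Gm19719, overlaps the exons of Alox5ap.

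**Figure D2:**
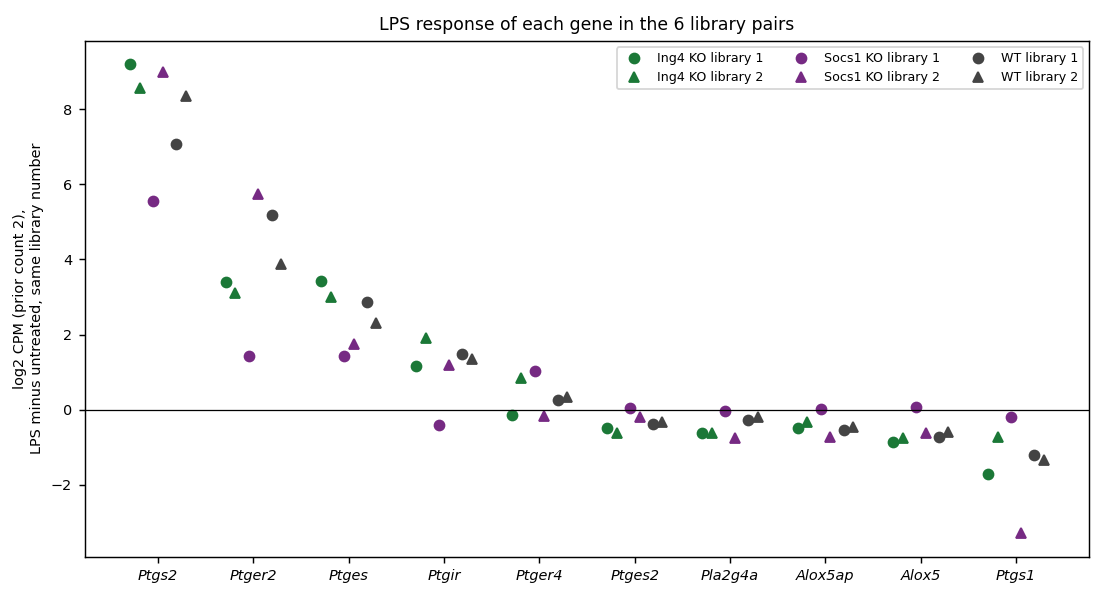
Difference in log2 CPM (prior count 2) between LPS-treated and untreated libraries of the same number, for each gene and genotype, with circles for library 1 and triangles for library 2. Ptgs2, Ptger2 and Ptges were above 0 in all 6 pairs, with Ptgs2 between 5.55 and 9.20, while Ptgs1 and Pla2g4a were below 0 in all 6.

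Counted over the 10 genes, LPS raised 2 in Ing4 KO (4.73% of all genes tested were called higher), 2 in Socs1 KO (1.57%) and 2 in WT (1.89%). In each case these were Ptgs2 and Ptges. For the mean response 3 were called higher, against 17.9% of all genes, and 0 were called lower, against 15.2%. These 3 include Ptger2, which passed the filter on low counts only through LPS-treated libraries. Its calls, here and in the counts below, are therefore no independent support for a rise. The median log2 change of the 10 genes was -0.07 in Ing4 KO, 0.28 in Socs1 KO and 0.03 in WT, beside medians between -0.00 and 0.01 for all genes. The median in Socs1 KO was -0.10, beside -0.01 for all genes, without LPS-treated library 1. Without LPS-treated Socs1 KO library 1 the counts were 3 higher in Ing4 KO (20.4% of all genes called in either direction), 3 in Socs1 KO (15.8%) and 3 in WT (14.5%), namely Ptgs2, Ptges and Ptger2. For the mean response they were then 4 higher and 3 lower, beside 41.7% of all genes. With same-numbered libraries blocked, 4 genes were higher and 3 lower in Ing4 KO (27.2% of all genes called in either direction), 3 higher in Socs1 KO (6.02%) and 4 higher in WT (14.2%). For the mean response this block gave 4 higher and 5 lower (51.7%). The 3 called lower in Ing4 KO were Ptges2 (-0.54, edgeR adjusted p = 0.032), Pla2g4a (-0.62, edgeR adjusted p = 0.041) and Alox5 (-0.81, edgeR adjusted p = 0.023). Over the same-numbered pairs, 3 of the 10 genes were higher with LPS in all 6, against 24.1% of all genes, and 2 were lower in all 6, against 22.3%.

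The knockouts were then set against WT within a treatment, to ask whether the cells labelled Ing4 KO or Socs1 KO differed from WT in these genes. Both knockouts share the WT libraries, so their values are not independent. None of the 10 genes was called in any of these 4 comparisons. Of all genes tested, 0.102% were called for LPS-treated Ing4 KO, 0.0626% for LPS-treated Socs1 KO, 0.141% for untreated Ing4 KO and 0.047% for untreated Socs1 KO. An unadjusted edgeR p under 0.05 was reached by 2 of the 10 genes for LPS-treated Ing4 KO (7.09% of all genes), 1 for LPS-treated Socs1 KO (10.6%), 1 for untreated Ing4 KO (5.25%) and 0 for untreated Socs1 KO (5.15%). DESeq2 called 1 gene for LPS-treated Ing4 KO (1.1% of all genes), 1 for LPS-treated Socs1 KO (1.9%), 1 for untreated Ing4 KO (0.987%) and 0 for untreated Socs1 KO (0.697%). All of these counts are from fits to all 12 libraries. Without LPS-treated Socs1 KO library 1 the unadjusted edgeR counts for both untreated knockouts were higher, as were the shares of all genes.

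Ptgs1 had the largest fitted difference from WT among the genes with counts in every group, in Ing4 KO cells. After LPS it averaged 0.483 ± 0.414 CPM in Ing4 KO and 6.02 ± 3.71 CPM in WT cells (SD, n = 2 each). Untreated, it averaged 1.08 ± 0.359 CPM in Ing4 KO and 14.4 ± 8.07 CPM in WT cells (SD, n = 2 each). Libraries of these genotypes did not overlap in either treatment, and the WT libraries differed from each other by more than 96.3% of genes did after LPS and 96.5% untreated. The fitted difference was -3.65 on the log2 scale after LPS (SE 1.01, edgeR adjusted p = 0.4) and -3.73 untreated (SE 0.958, edgeR adjusted p = 0.37). DESeq2 called both, with adjusted p of 0.008 after LPS and 0.003 untreated. Without LPS-treated Socs1 KO library 1, which is in none of these groups, the edgeR differences were -3.66 after LPS and -3.73 untreated. Their SEs were then smaller, and edgeR still called neither. The authors' deposited table lists Ptgs1 for Ing4 KO over WT with a log2 change of -2.08 after LPS (adjusted p 0.022) and -2.47 untreated (adjusted p 0.0017). How the deposited changes were fitted is not stated for any gene, so their sizes may not be on the same footing as the fits given here. In Socs1 KO the fitted difference of Ptgs1 was -1.59 after LPS (SE 0.884) and -1.64 untreated (SE 0.864), with edgeR adjusted p of 0.55 and 1. The difference after LPS was -3.72 without LPS-treated Socs1 KO library 1 (SE 1, edgeR adjusted p = 0.3). After LPS that library, at 3.46 CPM, was just above the lower WT library, at 3.4 CPM, while library 2 was below both WT libraries, and untreated the groups did not overlap.

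Ptger2 after LPS had 32 counts over both Ing4 KO libraries and 359 over both WT libraries. Scaled by summed library sizes, the ratio was 0.0874 (exact 95% interval 0.0589 to 0.126, counting error only). The libraries did not overlap, but the fitted difference of -3.53 on the log2 scale (SE 1.35) had an edgeR adjusted p of 0.68. It was called without LPS-treated Socs1 KO library 1 (edgeR adjusted p = 0.0497), although that library is in neither group, and not in the other 11 such fits. With all 12 libraries DESeq2 did not call it either (-3.54, DESeq2 adjusted p = 0.2). The authors' deposited table has Ptger2 at -2.07 with an adjusted p of 0.036 for this comparison. In untreated cells, with the floor of 3 counts over the group, Ptger2 was at least 4.31-fold lower in Ing4 KO than in WT. The untreated ratio of Socs1 KO to WT was 0.08 (0.00188 to 0.532), from 1 and 13 counts.

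Ptges after LPS averaged 5.18 ± 1.5 CPM in Socs1 KO cells and 12.8 ± 0.142 CPM in WT cells (SD, n = 2 each). The fitted difference was -1.31 on the log2 scale (SE 0.302), with an edgeR adjusted p of 0.19 and a DESeq2 adjusted p of 0.01. Without LPS-treated Socs1 KO library 1 it was -1.03 (edgeR adjusted p = 0.36), and without library 2, which leaves the library that stood apart, it was called (edgeR adjusted p = 0.021). The authors' deposited table gives -1.22 with an adjusted p of 0.0094. LPS-treated Ing4 KO cells, in contrast, had 16.1 ± 0.359 CPM of Ptges (SD, n = 2), and both of these libraries were above both WT ones.

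**Figure D3:**
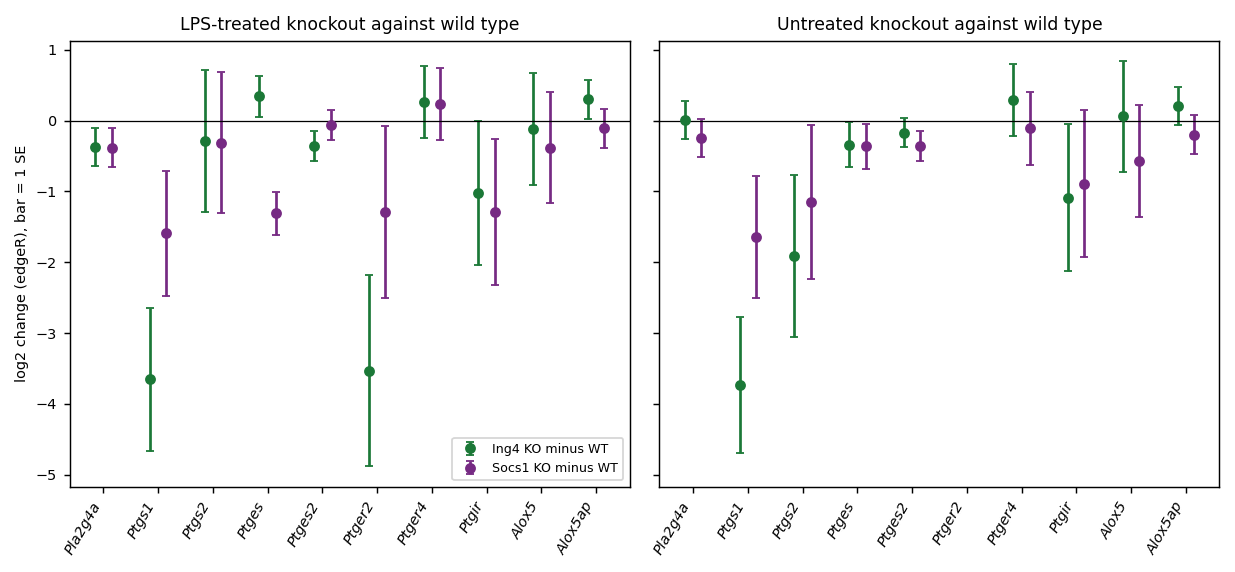
Fitted log2 difference of each knockout from WT for each gene, after LPS (left) and untreated (right), with bars of 1 SE on either side. Ptgs1 in Ing4 KO lay lowest in both panels at -3.65 and -3.73; untreated Ptger2 is left out because a group has 0 counts.

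Most other fitted differences were small or had large errors. In untreated Socs1 KO cells the fitted difference from WT was below 0 for all 10 genes, with a median of -0.47 beside 0.01 over all genes. After LPS it was below 0 for 9 of them, with a median of -0.38 beside 0.02. In Ing4 KO it was below 0 for 7 genes after LPS (median -0.33 beside 0.02) and for 6 untreated (median -0.25 beside 0.01). The share of all genes above 0 in these comparisons was 50.9% for untreated Socs1 KO, 51.4% for LPS-treated Socs1 KO, 52.1% for LPS-treated Ing4 KO and 50.9% for untreated Ing4 KO. The counts were the same with RLE scaling but moved when 1 library was left out. The 10 for untreated Socs1 KO became 7 without untreated WT library 1 and 8 without untreated Socs1 KO library 1, and the median ran from -0.91 to -0.27 over the libraries left out. The 9 for LPS-treated Socs1 KO became 8 without its library 1, and the median was -1.08 without its library 2. The 7 for LPS-treated Ing4 KO became 5 without its library 2, with a median of -0.06.

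Whether the LPS response itself differed between a knockout and WT was tested as an interaction. None of the 10 genes was called for either knockout, and neither was any of the 12771 genes (0% of all genes). At an unadjusted p under 0.05, edgeR gave 53 genes for Ing4 KO (0.415%) and 102 for Socs1 KO (0.799%), none of them among the 10, and DESeq2 gave 36 and 93 with 0 called after adjustment. For Ptges the response differed from that of WT by -0.94 on the log2 scale in Socs1 KO (SE 0.437, edgeR adjusted p = 1) and by 0.67 in Ing4 KO (SE 0.433, edgeR adjusted p = 1). The response of Ptgs2 differed by 1.61 in Ing4 KO (SE 1.51), and by 0.12 without untreated WT library 1 to 2.33 without untreated WT library 2. With no filter on low counts that difference was called (edgeR adjusted p = 0.04), as were those of 0.109% of all genes.

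Beyond these members, a wider list of 66 genes of eicosanoid metabolism and reception, with related phospholipases and lipid receptors, was examined. Of these, 65 were in the table and 36 were tested. For the mean LPS response 6 of the 36 rose and 3 fell, beside 17.9% and 15.2% of all genes, and the median log2 change was -0.15. Those that rose were Acsl4, Abcc1, Dpep2, Ptafr, Plaa and Ptges3, and those that fell were Zadh2, Hpgds and Pla2g15. In Ing4 KO alone 3 rose (Acsl4, Abcc1 and Dpep2), beside 4.73% of all genes, and 1 fell (Zadh2), beside 3.29%. In Socs1 KO alone none was called, beside 1.98% of all genes in either direction, and in WT alone 1 rose (Acsl4), beside 1.89%. Without LPS-treated Socs1 KO library 1, of 39 genes then tested, 4 were called higher and 1 lower in Ing4 KO, 3 higher (Abcc1, Ptafr and Acsl4) and 1 lower (Zadh2) in Socs1 KO, and 3 higher and 2 lower in WT. With same-numbered libraries blocked, 6 were higher and 3 lower in Ing4 KO, 2 higher (Acsl4 and Pla2g5) and 2 lower (Hpgd and Zadh2) in Socs1 KO, and 5 higher and 3 lower in WT. The shares of all genes called in these fits are given above with the counts of the 10 genes. In the knockout comparisons and interactions edgeR called none. DESeq2 called 1 of these genes each for untreated Ing4 KO (Hpgd) and for untreated and LPS-treated Socs1 KO (Ephx1), all lower.

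Acsl4, which activates arachidonic acid with coenzyme A, averaged 304 ± 64.3 CPM in LPS-treated and 145 ± 21.7 CPM in untreated Ing4 KO cells, and 276 ± 4.59 and 145 ± 16.8 CPM in LPS-treated and untreated WT cells (SD, n = 2 each). Its mean rise was 0.90 on the log2 scale (SE 0.116, edgeR adjusted p = 0.001). Abcc1, the exporter of leukotriene C4, rose by 0.94 (SE 0.134, edgeR adjusted p = 0.0015). Dpep2, a dipeptidase that converts leukotriene D4 to leukotriene E4, rose by 2.65 (SE 0.458, edgeR adjusted p = 0.0035). It averaged 11.7 ± 3.03 CPM in LPS-treated and 0.939 ± 1.02 CPM in untreated Ing4 KO cells (SD, n = 2 each). Ptafr, the receptor for platelet-activating factor, rose by 1.24 (SE 0.255, edgeR adjusted p = 0.0074).

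On the lower side, Zadh2, a prostaglandin reductase, changed by -0.97 on the log2 scale (SE 0.17, edgeR adjusted p = 0.0037). It averaged 24.4 ± 0.955 CPM in LPS-treated and 54.8 ± 3.65 CPM in untreated Ing4 KO cells, and 31.6 ± 1.99 and 60.3 ± 0.0175 CPM in LPS-treated and untreated WT cells (SD, n = 2 each). Hpgds, the haematopoietic prostaglandin D synthase, changed by -0.98 (SE 0.229, edgeR adjusted p = 0.012), and Pla2g15, a lysosomal phospholipase, by -1.13 (SE 0.326, edgeR adjusted p = 0.027). Plaa and Ptges3, the cytosolic prostaglandin E synthase and Hsp90 co-chaperone, rose by 0.34 and 0.36 (edgeR adjusted p = 0.031 and 0.0473). The 4 uncalled genes with the highest levels were Fads1 and Fads2, desaturases that make arachidonic acid, Cotl1, a binding partner of 5-lipoxygenase, and Akr1b3, an aldo-keto reductase. Their mean LPS changes were -0.24, -0.13, 0.33 and -0.07 on the log2 scale. With same-numbered libraries blocked, Fads1 (-0.25, edgeR adjusted p = 0.033) and Cotl1 (0.34, edgeR adjusted p = 0.0071) were called.

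Without LPS-treated Socs1 KO library 1 the mean response of the wider list had 7 genes higher and 8 lower of 39 tested, beside 21.4% and 20.3% of all genes. With same-numbered libraries blocked it had 10 higher and 11 lower of 36, beside 26.6% and 25.1%. Hpgd, the enzyme that inactivates prostaglandin E2, is named here after its values were seen. It had 0 counts in all LPS-treated Ing4 KO and Socs1 KO libraries and 0.699 and 0.101 CPM in LPS-treated WT ones. Untreated, it had 0.0436 and 0.0461 CPM in Ing4 KO, 0.217 and 0.996 CPM in Socs1 KO and 14.8 and 2.54 CPM in WT cells. The WT libraries were the highest in each treatment but differed widely from each other. The edgeR adjusted p of its mean LPS response was 0.0527, and it passed with same-numbered libraries blocked (edgeR adjusted p = 0.0086) and with DESeq2 (adjusted p = 0.00026). The edgeR adjusted p of untreated Ing4 KO against WT was 0.26, where DESeq2 gave an adjusted p of 0.00036. Because Hpgd was picked by these values, its p-values are no independent evidence of a difference.

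**Figure D4:**
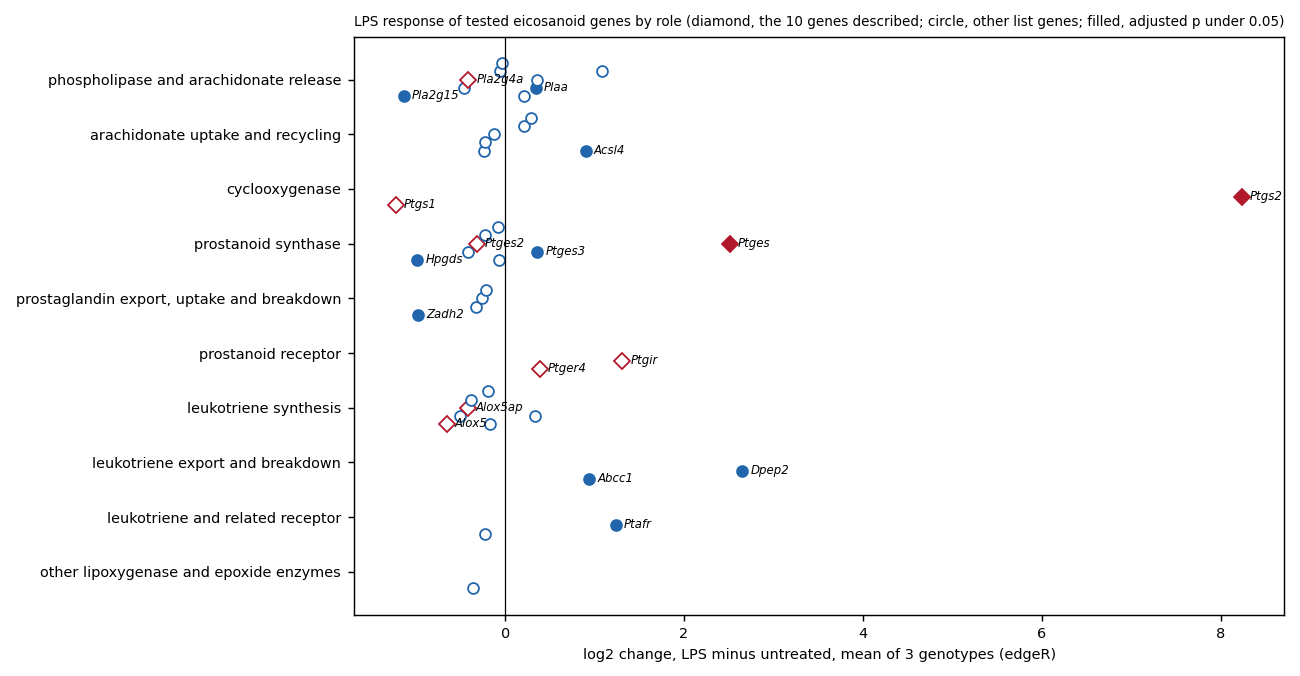
Mean LPS response on the log2 scale, by role, of the 10 genes (diamonds) and of the other tested genes of the wider list (circles), filled where the adjusted p was under 0.05. Ptgs2 lay farthest to the right at 8.24; Ptger2, Hpgd and Pla2g2d are left out because a group has 0 counts.

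For each gene, the genes with the most similar course over the 12 libraries were found among 9849 genes by the root mean square difference of centred log2 CPM. For Ptgs2 these were Cxcl10 (0.89), Tnf (0.95) and Cish (0.95), with a spread of Ptgs2 itself of 4.12 on the same scale. Ptges was closest to Dcbld2 (0.30), Spryd7 (0.33) and Tnip1 (0.34), with a spread of its own of 1.35. Ptger2 was closest to Lta (1.00), Bcl6b (1.02) and Il1rn (1.06), beside its own 2.47. Ptgir had Epsti1 (0.40), Mcoln2 (0.44) and Basp1 (0.45), beside 1.33. For Ptgs1 they were Coro2a (0.92), Cep170b (0.95) and Il11ra1 (1.00), beside 1.77. Coro2a was low in both knockouts. After LPS it averaged 1.08 CPM in Ing4 KO, 2.78 CPM in Socs1 KO and 15.6 CPM in WT cells, and untreated it averaged 2.89 CPM in Ing4 KO, 3.06 CPM in Socs1 KO and 23.4 CPM in WT cells. Alox5 was closest to Slc6a13 (0.39), beside 0.81, and the other genes had neighbours at 0.10 to 0.32 beside spreads of 0.26 to 0.48.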

How the data were processed

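RNA from 12 libraries of RAW264.7 cells was poly(A)-selected, made into TruSeq stranded libraries and read from 1 end over 75 bases, per the labels' protocols. The authors deposited 1 table of raw read counts per Ensembl gene, without scaling, and tables of changed genes with log2 changes and adjusted p-values. FastQC, HISAT, StringTie, HTSeq and DESeq2 are named in the submitters' processing notes, and no version, setting or strand option is stated there. The notes name GRCh38. Since the identifiers are those of mouse genes, and since 94.83% of the positions in the authors' deposited tables (1028 of 1084) match GRCm38, that build was used. The treatment protocol names HEK293T cells, while samples are labelled as the mouse line.

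Counts were tested with edgeR 4.0.16 in R 4.3.3: filterByExpr (12771 genes), TMM scaling, 1 mean for each of 6 groups, robust quasi-likelihood F-test, Benjamini-Hochberg adjustment over all genes, called at 0.05. An SE is the size of the log2 change divided by the root of F. CPM uses TMM-scaled library sizes, and length is the union of exons. Intervals and floors (3 counts) cover counting error only. Replicates differed beyond counting noise (chi-square per degree of freedom 33.6 to 287), so none was counted as a duplicate. Libraries of the same number and genotype deviated together (correlation of replicate differences 0.447 in WT, 0.601 in Ing4 KO and 0.565 in Socs1 KO, against -0.129 to 0.156 between genotypes), so a fit with them blocked is given beside a result of the 10 genes where it changes a call, and for the wider list as counts with examples. This was decided before the fits were compared.

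The 10 members, the wider list and the marker lists were chosen with earlier results of these data known. Named beside the members are called genes of the wider list, its 4 uncalled genes of highest level, and the 3 genes nearest to each member in course, among genes with a mean of at least 2 CPM. Alternatives were DESeq2 1.42.0, RLE scaling, no filter, a fit to only the groups compared, both blocks and leaving out each library. The fitting code was tested on simulated data.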

Additional observations from a re-analysis of the deposited data

How the results depend on the processing

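The counts of the 10 genes called by edgeR kept within 1.5 times of the values given above with RLE scaling in every comparison. With no filter on low counts they became 5 for LPS in Ing4 KO, 5 in WT and 8 for the mean response, 2 for LPS-treated and 3 for untreated Ing4 KO against WT, 3 for LPS-treated and 3 for untreated Socs1 KO against WT, and 1 for the Ing4 KO interaction. The shares of all 23947 genes then called were 10.8%, 8.69% and 19.7% for these LPS responses, 2.25% for LPS-treated and 2.15% for untreated Ing4 KO, 3.84% for LPS-treated and 1.79% for untreated Socs1 KO, and 0.109% for the interaction. In a fit of only the groups compared they became 4 for LPS in Ing4 KO, 0 in Socs1 KO and 5 in WT, and 1 each for LPS-treated and untreated Ing4 KO against WT. The shares of all genes were 15.2% for LPS in Ing4 KO, 0% in Socs1 KO, where 9 of the 10 genes could be tested and no gene of 11936 was called, and 18.2% in WT, and 0.6% for LPS-treated and 1.48% for untreated Ing4 KO. With DESeq2 they became 7 for the mean response (37.2% of all genes), and 1 each for LPS-treated Ing4 KO, LPS-treated Socs1 KO and untreated Ing4 KO against WT. For LPS in single genotypes DESeq2 gave 3 in Ing4 KO (17.1% of all genes), 3 in Socs1 KO (6.59%) and 3 in WT (11.1%). The gene added in each was Ptger2, kept by the filter only through LPS-treated libraries. The genotype-by-replicate block pairs same-numbered libraries of a genotype. With it they became 7 for LPS in Ing4 KO (27.2% of all genes), 4 in WT (14.2%) and 9 for the mean response (51.7%), and were 3 in Socs1 KO (6.02%). The replicate block over all genotypes gave 2 in Ing4 KO (9.79% of all genes), 2 in Socs1 KO (2.04%), 2 in WT (3.48%) and 4 for the mean response (35.9%). It gave 0 in the other comparisons (at most 0.188% of all genes). Leaving out 1 library at a time raised the counts in some fits for each LPS response and for both LPS-treated knockouts against WT. For LPS in single genotypes it also lowered them in others, and the counts in the remaining comparisons stayed at 0. For 33 single-gene results given above, 577 values were recomputed. Of these, 482 kept direction and side of the threshold, 63 newly passed, 31 no longer passed and 1 changed sign. That was Alox5 for LPS in Ing4 KO, which was 0.00 on the log2 scale without untreated library 1 and ranged from -1.59 to 0.00 over libraries left out. Uncalled changes outside these 33 also crossed 0: for LPS in Socs1 KO, Ptger4 was 0.62 and then -0.35, and Alox5 was -0.47 and then 0.12, without LPS-treated library 1, and the Socs1 KO interaction of Ptgs2 was 0.83 and then -0.29 with the genotype-by-replicate block. The cause was not tested in any of these. The mean response has no fit of only the groups compared, because it uses all 6, and knockout comparisons have no genotype-by-replicate block. With 2 libraries per group, a fit without 1 of them assumes that the lone library varies like the other groups, and Ptger2 and Ptgs1 in Ing4 KO rest on few counts.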
